A study of Mus musculus with 2 samples.

Results

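The BCL2 family apoptosis regulators described here are 10 mouse genes, picked by name from 43346 Ensembl genes in the gene tables: 3 pro-survival genes (Bcl2, Bcl2l1, Mcl1), 3 effector genes (Bax, Bak1, Bok) and 4 BH3-only genes (Bid, Bad, Bbc3, Bcl2l11). All 10 were found by symbol and stable identifier in both libraries. The study is RNA sequencing of whole heart from strain B6NCrl at embryonic day 15.5, with no genotype or treatment named in the labels. It has 1 group of 2 biological replicates, each a pool with both sexes mixed: replicate 1 joined hearts of 78 embryos and replicate 2 those of 62. Per the labels, 10 ng of RNA above 200 nt entered each library and spike-in RNA was added. Values are TPM, a relative abundance of transcripts corrected for their length, or expected counts, which are not corrected.

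The BCL2 family controls whether the outer membrane of mitochondria stays intact. BAX and BAK, once active, open pores in that membrane and let cytochrome c escape to switch on caspases, while BCL2, BCL-XL (from Bcl2l1) and MCL1 hold them and the BH3-only proteins in check through a surface groove. BH3-only proteins carry stress signals: they fill that groove through a short helix, the BH3 domain, and some of them also activate BAX and BAK directly. In the mouse heart, loss of Mcl1 from cardiomyocytes leads to heart failure, and mitochondria of young hearts are known to be more readily permeabilised than those of adults.

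The BH3 stretch is the part through which BH3-only proteins bind the groove of pro-survival proteins. Its coding sequence is shown for each of the 10 genes, in the leading protein-coding transcript. The stretch was searched in the translated sequence as leucine, any 3 residues, then glycine, alanine or serine, then aspartate. Each of the 10 coding sequences held exactly 1 match. The same pattern is loose: 33.4% of 22101 genes with a coding sequence from ATG held at least 1. Each line gives 27 bases 5′ to 3′ on the coding strand, from GENCODE M21 transcripts on GRCm38 (mm10), with the leucine codon and the pair of codons ending in aspartate in capitals.
Bcl2 (chr1:106712575-106712601, minus strand): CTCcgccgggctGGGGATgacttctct
Bcl2l1 (chr2:152829697-152829723, minus strand): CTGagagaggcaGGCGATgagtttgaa
Mcl1 (chr3:95659436-95659462, plus strand): CTGcggcgcgtgGGCGACggcgtgcag
Bax (chr7:45465997-45466023, minus strand): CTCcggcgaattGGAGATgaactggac
Bak1 (chr17:27022531-27022557, minus strand): CTTgctctcatcGGAGATgatattaac
Bok (chr1:93686657-93689170, plus strand, split by an intron): CTGctgcgcttgGGAGATgagctggag
Bid (chr6:120897289-120897315, minus strand): CTCgcccaaataGGCGATgagatggac
Bad (chr19:6950792-6950818, plus strand): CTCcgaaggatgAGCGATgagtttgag
Bbc3 (chr7:16313773-16313799, plus strand): CTGcggcggatgGCGGACgacctcaac
Bcl2l11 (chr2:128147150-128147176, plus strand): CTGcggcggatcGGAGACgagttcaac

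Over the 45 pairs of genes, these stretches shared between 11 and 22 of 27 bases, with a median of 16. Part of this sharing was set by the search, which lined the stretches up on codons for leucine and aspartate. The closest pair was Bbc3 and Bcl2l11, with 22 of 27 bases the same. The stretch began at codon 94 of 236 in Bcl2, codon 90 of 233 in Bcl2l1 and codon 63 of 192 in Bax. In the BH3-only genes it lay at codon 90 of 195 in Bid, 109 of 162 in Bad, 141 of 193 in Bbc3 and 150 of 196 in Bcl2l11.

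The expected counts summed to 41883313 in replicate 1 and 39697992 in replicate 2. The tissue is labelled heart, and cardiomyocyte markers had a median of 2897 TPM. They ranged from a mean of 12.1 TPM for Ryr2 to 10279 TPM for Actc1. Ryr2 lay below the median of detected protein-coding genes, 15.8 TPM. The libraries did not match in every cell type. Summed marker TPM in replicates 1 and 2 was 17.6 and 183 for 10 thymocyte markers, 45.1 and 206 for 6 liver markers, 130 and 331 for 5 lung epithelium markers, 11.6 and 58.8 for 7 neuron and glia markers, and 154 and 226 for 7 macrophage markers. More than 1.5-fold higher in replicate 2 were 7 of the 10 thymocyte, 6 of the 6 liver and 5 of the 5 lung markers. So were 6 of the 7 neuron and glia and 1 of the 7 macrophage markers. Only 7 thymocyte markers had the 10 counts in both libraries needed for this call, which Cd4, Cd8a and Dntt lacked. For 10 cardiomyocyte markers the sum was 40390 and 35100, and 3 were more than 1.5-fold lower. Nppa was on the other side at a log2 ratio of 0.21. The largest marker sum was that of 8 erythroid genes, 121700 and 116800 TPM, of which 1 was more than 1.5-fold higher. By that fold, 1 of 5 smooth muscle markers was higher and 1 of 4 megakaryocyte markers lower. No endothelial, epicardial or fibroblast and valve marker passed it. No marker gene of these lists was at 0 counts in either library. With 1 group and 2 libraries, an exact sign-flip test cannot go below p = 0.5, so levels are given with their spread and without a test. In bulk tissue, fewer cells of a type and less RNA per cell cannot be told apart.

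Both libraries held each of the 10 genes at 1 TPM or more, a level passed by 58.2% of the 21474 protein-coding genes. At 5 TPM or more in both libraries there were 8 of 10, where 44.4% of protein-coding genes passed. Their median was 25.7 TPM, against 15.8 TPM for the 12491 protein-coding genes at 1 TPM or more. The level of the highest, Bax, was 19.8 times that of the lowest, Bak1.

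**Figure D1:**
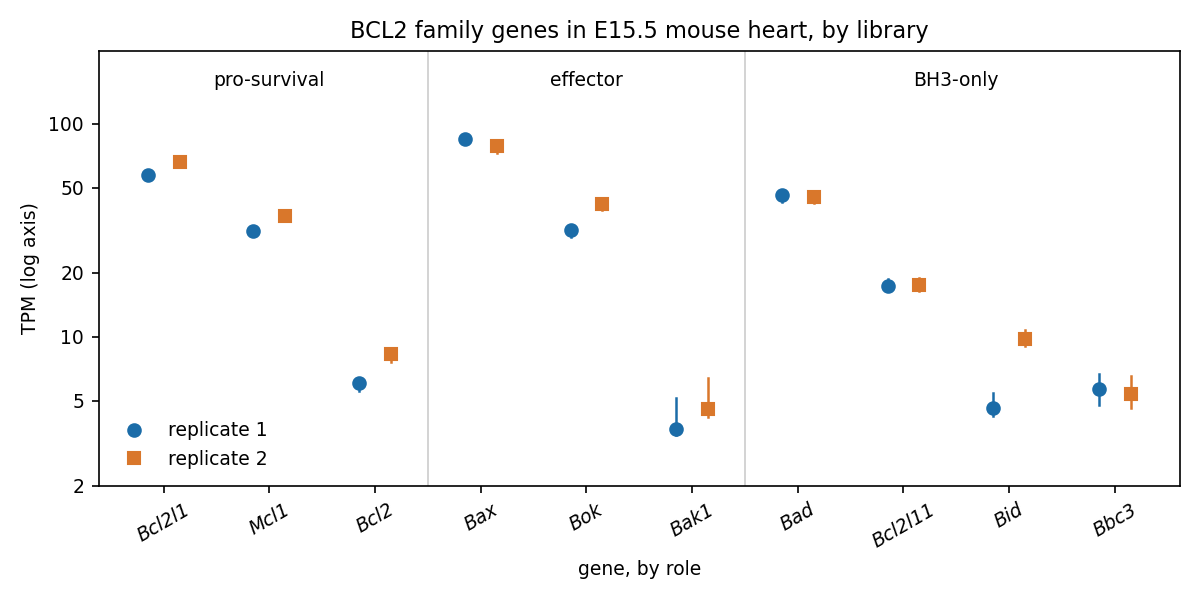
TPM of the 10 genes (log axis) in replicate 1 (circles) and replicate 2 (squares), grouped by role; vertical lines are the bounds deposited with each TPM, whose confidence level is not stated. Each role holds 1 gene well above the others: Bcl2l1 at 57.5 and 66.3, Bax at 85.2 and 78.3, and Bad at 46.1 and 45.3 TPM.

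Among the pro-survival genes, the transcripts of Bcl2l1 were the most abundant. Bcl2l1 (ENSMUSG00000007659, chr2:152780668-152831728, minus strand), the gene for BCL-XL, had 57.5 TPM in replicate 1 and 66.3 TPM in replicate 2 (61.9 ± 6.23, SD, n = 2). Mcl1 (chr3:95658788-95663176, plus strand), which encodes a protein with a short half-life, had 31.2 and 36.7 TPM (34.0 ± 3.89, SD, n = 2). Bcl2 (chr1:106538178-106714274, minus strand), after which the family is named, had 6.09 and 8.30 TPM (7.20 ± 1.56, SD, n = 2). The ranges of the 3 genes did not overlap: Bcl2l1 carried 60.7% and 59.6% of the summed pro-survival TPM, and Bcl2 was the lowest of the 3 in both libraries. By rank among detected protein-coding genes, Bcl2l1 stood above 83.7% of them, Mcl1 above 70.5% and Bcl2 above 28.6%.

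Bax led the effectors and was the highest of all 10 genes in both libraries. Bax (chr7:45461697-45466898, minus strand), which moves from the cytosol to mitochondria when activated, had 85.2 and 78.3 TPM (81.7 ± 4.86, SD, n = 2). Bak1 (chr17:27019810-27029009, minus strand), the gene for BAK, which sits in the outer membrane, had 3.70 and 4.57 TPM (4.14 ± 0.615, SD, n = 2). Bok (chr1:93685660-93695764, plus strand), a relative of BAX and BAK that is little restrained by pro-survival proteins, had 31.6 and 42.2 TPM (36.9 ± 7.50, SD, n = 2). Bax held 70.7% and 62.6% of the summed effector TPM, and its range lay above that of every other gene. The whole Bak1 gene lies within Ggnbp1 on the opposite strand, over 9200 bases, and Ggnbp1 had 14.1 and 11.6 TPM. Since the use of strand in counting is not stated, the Bak1 level is uncertain.

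Bad was the most abundant of the BH3-only genes. Bad (chr19:6941861-6951899, plus strand), whose protein is held inactive by phosphorylation and 14-3-3 proteins, had 46.1 and 45.3 TPM (45.7 ± 0.573, SD, n = 2). Bcl2l11 (chr2:128126038-128162547, plus strand), the gene for BIM, an activator of BAX and BAK, had 17.3 and 17.5 TPM (17.4 ± 0.163, SD, n = 2). Bad and Bcl2l11 each kept nearly the same TPM in both libraries, while the median of all genes was 0.21 higher in replicate 2 in log2 TPM. Bid (chr6:120891930-120916853, minus strand), whose protein links death receptors to mitochondria after cleavage by caspase-8, had 4.63 and 9.76 TPM (7.20 ± 3.63, SD, n = 2). Bbc3 (chr7:16308393-16318205, plus strand), the gene for PUMA and a target of p53, had 5.71 and 5.41 TPM (5.56 ± 0.212, SD, n = 2). Bid was thus the least even gene between the libraries, below Bbc3 in replicate 1 and above it in replicate 2.

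By mean TPM the order ran Bax, Bcl2l1, Bad, Bok, Mcl1, Bcl2l11, then Bcl2 and Bid at equal means, Bbc3 and Bak1. Of the 9 pairs of neighbours in this order, 3 had overlapping ranges: Bok with Mcl1, Bcl2 with Bid, and Bid with Bbc3. Of all 45 pairs, the other 42 did not overlap, and 43 had the same order in both libraries. Bax exceeded Bcl2l1 by 0.57 and 0.24 on the log2 TPM scale, and Bcl2l1 exceeded Bad by 0.32 and 0.55. The gap between Bad and Bok was 0.55 in replicate 1 and 0.10 in replicate 2, so it is the least even of the gaps between neighbours whose ranges did not overlap.

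Summed by role, effector transcripts were slightly above pro-survival transcripts. The 3 pro-survival genes summed to 94.8 and 111 TPM, the 3 effectors to 120 and 125 TPM, and the 4 BH3-only genes to 73.7 and 78.0 TPM. The log2 ratio of pro-survival over effector TPM was -0.35 in replicate 1 and -0.17 in replicate 2 (-0.26 ± 0.13, SD, n = 2), that is 1.19 times as much effector as pro-survival TPM. The direction turned under a pair of other definitions. With Bok left out of the effectors, a definition chosen after the data were seen, the mean was 0.26. From expected counts without length correction it was 1.29, since Bax has an effective length of 770 bases in the files against 2228 and 2268 bases for Bcl2l1. The log2 ratio of BH3-only over pro-survival TPM was -0.36 and -0.51 (-0.44 ± 0.11, SD, n = 2), that is 1.36 times as much pro-survival as BH3-only TPM. From expected counts it was -1.16.

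Transcript shares, given by the deposited percentage of a gene's TPM, showed which protein forms the reads of each gene were assigned to. Of the 42 transcripts of the 10 genes in the files, 37 had the same length in GENCODE M21, and those whose length differs are named where they matter. In 6 of the 10 genes, all TPM lay in transcripts annotated as protein-coding. In Bid, Bbc3 and Bak1 the coding share was below 80% in both libraries.

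**Figure D2:**
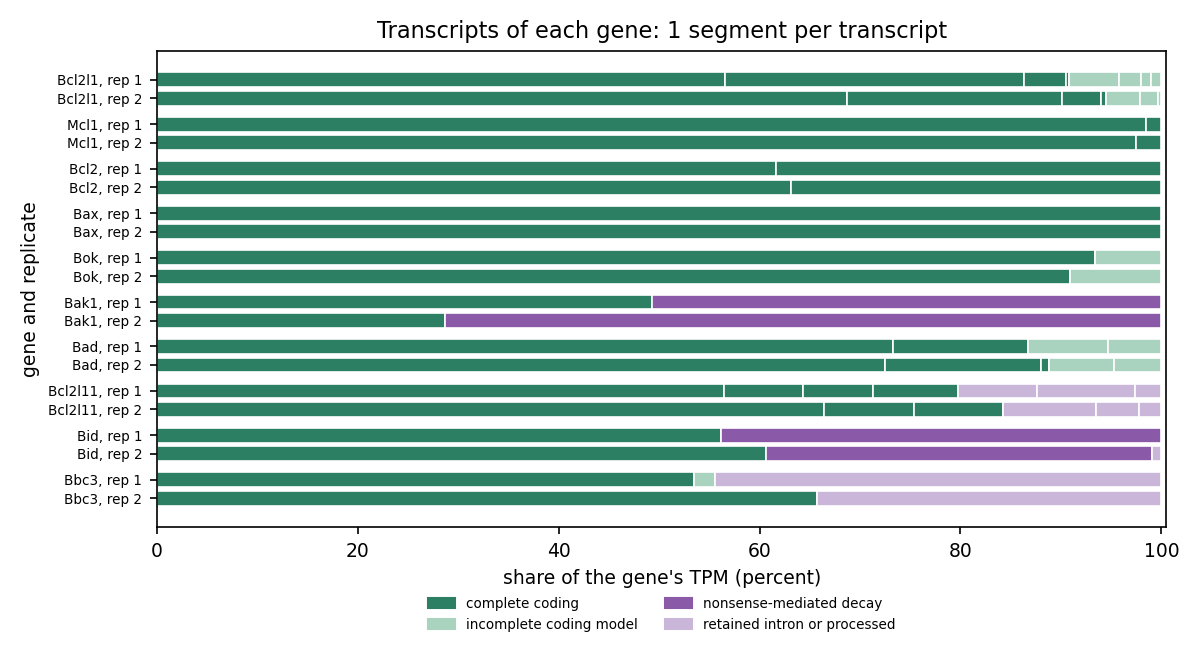
Share of each gene's TPM (percent) taken by each annotated transcript in replicates 1 and 2, 1 segment per transcript, coloured by annotation class. Bax is a single coding transcript, while Bak1 has 50.7% and 71.3% in a transcript of the nonsense-mediated decay class.

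For Bcl2l1, most of the TPM was in transcripts that encode the long form, BCL-XL, which ends in a membrane anchor. The leading transcript, Bcl2l1-201, took 56.6% and 68.7% of the gene's TPM (62.7 ± 8.56%, SD, n = 2), or 32.6 TPM (deposited bounds 28.4 to 35.6) and 45.6 TPM (bounds 40.9 to 48.1). Bcl2l1-202 starts at another site, 152830666 against 152831728 on chromosome 2, and has an identical coding sequence of 233 codons. It took 29.8% and 21.4%. Both together gave the 233-codon form 86.4% and 90.1% (88.2 ± 2.61%, SD, n = 2), so the sum was steadier between the libraries than either start. The deposited bounds of Bcl2l1-201 did not overlap between the libraries, while those of Bcl2l1-202 did.

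The other complete Bcl2l1 coding form has 209 codons and took 4.48% and 4.39% (4.44 ± 0.064%, SD, n = 2), through Bcl2l1-205 and Bcl2l1-206. It reads on past the splice junction into the intron and so lacks the last exon. Incomplete models, 4 in number, took 9.14% and 5.55%, and their coding parts lie wholly inside that of Bcl2l1-201. Of the 8 Bcl2l1 transcripts with a coding sequence, 0 were an internal deletion of the leading one, which is the shape of the short pro-death form BCL-XS, so the files give no level for it. The junction where the forms part is shown because it decides which C-terminal end is made. Shared bases are in lower case and the bases after the parting in capitals, and both transcripts share 565 coding bases before it.
Bcl2l1-201: agaacggcggctgggACACTTTTGTGGATC
Bcl2l1-205: agaacggcggctgggTAAGAACCACGCCCC

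Bcl2 parts at the matching place. Bcl2-201, with 236 codons, took 61.6% and 63.2% (62.4 ± 1.11%, SD, n = 2), and Bcl2-202, an unspliced transcript of 199 codons, took 38.4% and 36.8% (37.6 ± 1.11%, SD, n = 2). The first is the form with the C-terminal membrane anchor. Reads of Bcl2-202 beyond the junction cannot be told apart from those of unspliced Bcl2 RNA. The labels call the molecule total RNA, and whether RNA without a poly(A) tail was captured is not stated. This bears on every unspliced, read-through and retained-intron share given here. The sequences share 577 coding bases, and the last 7 shared letters are the same as in Bcl2l1.
Bcl2-201: ataacggaggctgggATGCCTTTGTGGAAC
Bcl2-202: ataacggaggctgggTAGGTGCATGTCTGG

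In TPM, Bcl2-201 had 3.75 and 5.25, and Bcl2-202 had 2.34 and 3.06. The shorter read-through form thus took a share of 37.6% of Bcl2 against 4.44% of Bcl2l1, and the ranges of these shares over the libraries did not overlap.

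**Figure D3:**
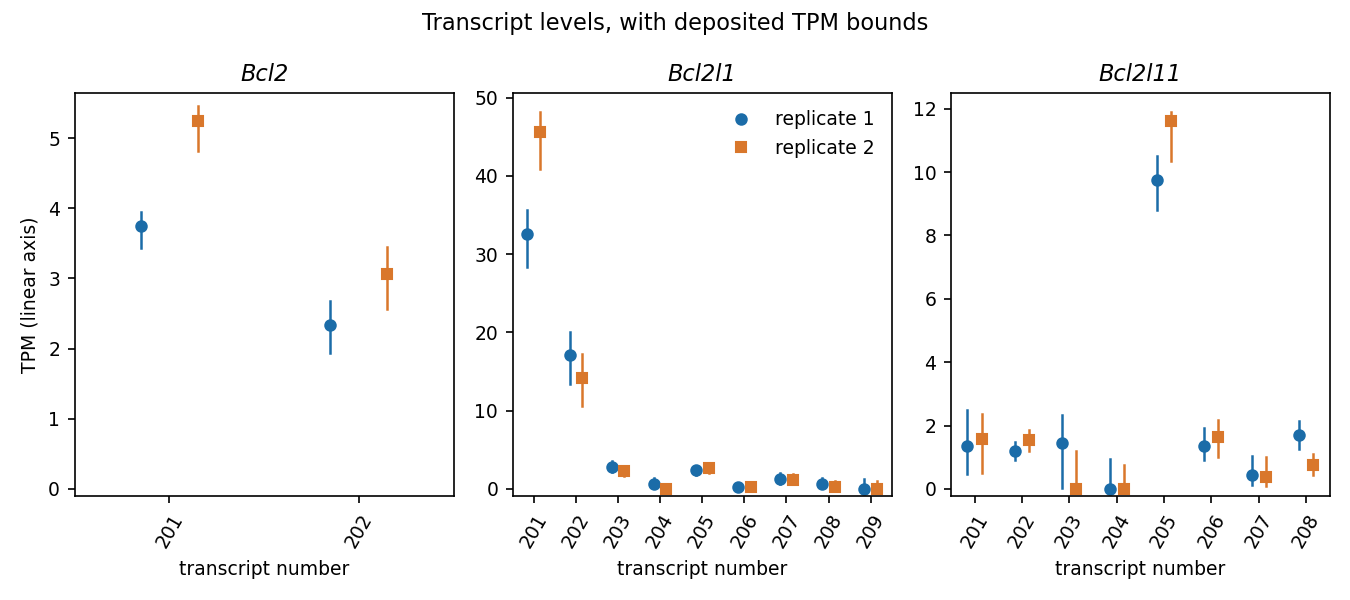
TPM (linear axes, 1 scale per gene) of each annotated transcript of Bcl2, Bcl2l1 and Bcl2l11 in replicate 1 (circles) and replicate 2 (squares), with the deposited TPM bounds as lines. A single transcript leads in each gene, Bcl2-201, Bcl2l1-201 and Bcl2l11-205, and the next one is closest to it in Bcl2.

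Mcl1 was almost wholly the 331-codon form. Mcl1-201 took 98.5% and 97.5% (98.0 ± 0.728%, SD, n = 2) and Mcl1-202 the remaining 1.51% and 2.54%, or 0.47 and 0.93 TPM. Mcl1-202 lacks 138 bases (46 codons) after the first 57 coding bases and keeps the BH3 stretch. The length of Mcl1-201 in the files differs from GENCODE M21. Its parting point is shown since the missing part lies in the N-terminal region that, in MCL1, carries signals for degradation.
Mcl1-201: tactgcggcggcgccAGCCTCGGCGCGGGC
Mcl1-202: tactgcggcggcgccGAGGACCCCGACGTC

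Bcl2l11 encodes several BIM forms, and the longest had the highest share. Bcl2l11-205, the 196-codon form known as BIM-EL, took 56.5% and 66.4% (61.4 ± 7.01%, SD, n = 2), or 9.76 and 11.6 TPM. The 140-codon form, Bcl2l11-203, was at 1.46 TPM in replicate 1 and listed at 0 in replicate 2, with deposited bounds of 0.0232 to 2.33 and 0 to 1.21 TPM that overlap. The 110-codon form, Bcl2l11-201, took 7.83% and 8.97%. Bcl2l11-202, with 91 codons, took 7.0% and 8.88%, and its coding sequence does not hold the BH3 stretch. The 4 coding sequences share their first 124 bases and then part, and the lines show what follows in each. Bcl2l11-203 and Bcl2l11-201 lack 168 and 258 bases of the leading coding sequence, and Bcl2l11-202 starts like Bcl2l11-203 and ends elsewhere.
Bcl2l11-205: agacagaaccgcaagGTAATCCCGACGGCG
Bcl2l11-203: agacagaaccgcaagACAGGAGCCCGGCAC
Bcl2l11-201: agacagaaccgcaagCTTCCATACGACAGT
Bcl2l11-202: agacagaaccgcaagACAGGAGCCCGGCAC

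Of the effectors, Bax was assigned to 1 transcript of 192 codons (its length in the files differs from GENCODE M21), and Bok-201, with 213 codons, took 93.4% and 91.0% of Bok. Bak1 was split: the coding Bak1-202, with 209 codons, took 49.3% and 28.7% (39.0 ± 14.6%, SD, n = 2), and Bak1-201, of the nonsense-mediated decay class, took the rest. In TPM, Bak1-202 had 1.83 (deposited bounds 1.15 to 2.42) and 1.31 (bounds 0.741 to 1.91), which overlap. The lowest effector by gene was therefore lower still by its coding transcript.

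Among the other BH3-only genes, Bad-202, with 162 codons, took 73.3% and 72.5% (72.9 ± 0.516%, SD, n = 2), and the 204-codon Bad-201 took 13.5% and 15.5%. Bad-201 differs in length from GENCODE M21, and it reaches the 620 bases that Bad shares with Gpr137 on the other strand, while Bad-202 does not. Bbc3-201, with 193 codons, took 53.4% and 65.7%, and Bbc3-203, a retained-intron transcript, took 44.4% and 34.3%. In TPM the coding Bbc3-201 had 3.05 and 3.56. Bid-201 took 56.1% and 60.7%, and Bid-204 took 43.9% and 38.4%. Bid-204 is placed in the nonsense-mediated decay class, yet its coding sequence of 195 codons is identical to that of Bid-201.

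Compared between the libraries, with 1 library on each side and so no test, 1 of the 10 genes was past 1.5-fold on TMM-scaled expected counts. Among 17029 genes with 10 or more counts in each library, 15.9% were past that fold, with 11.2% higher and 4.74% lower in replicate 2. Thus 1 in 10 is near the background. That gene was Bid, with 329 and 611 expected counts, a log2 ratio of 0.82 for replicate 2 over replicate 1, or 1.77-fold (exact 95% interval 1.54 to 2.03, counting error only). The other 9 ranged from -0.36 for Bax to 0.23 for Bcl2 on the log2 scale.

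**Figure D4:**
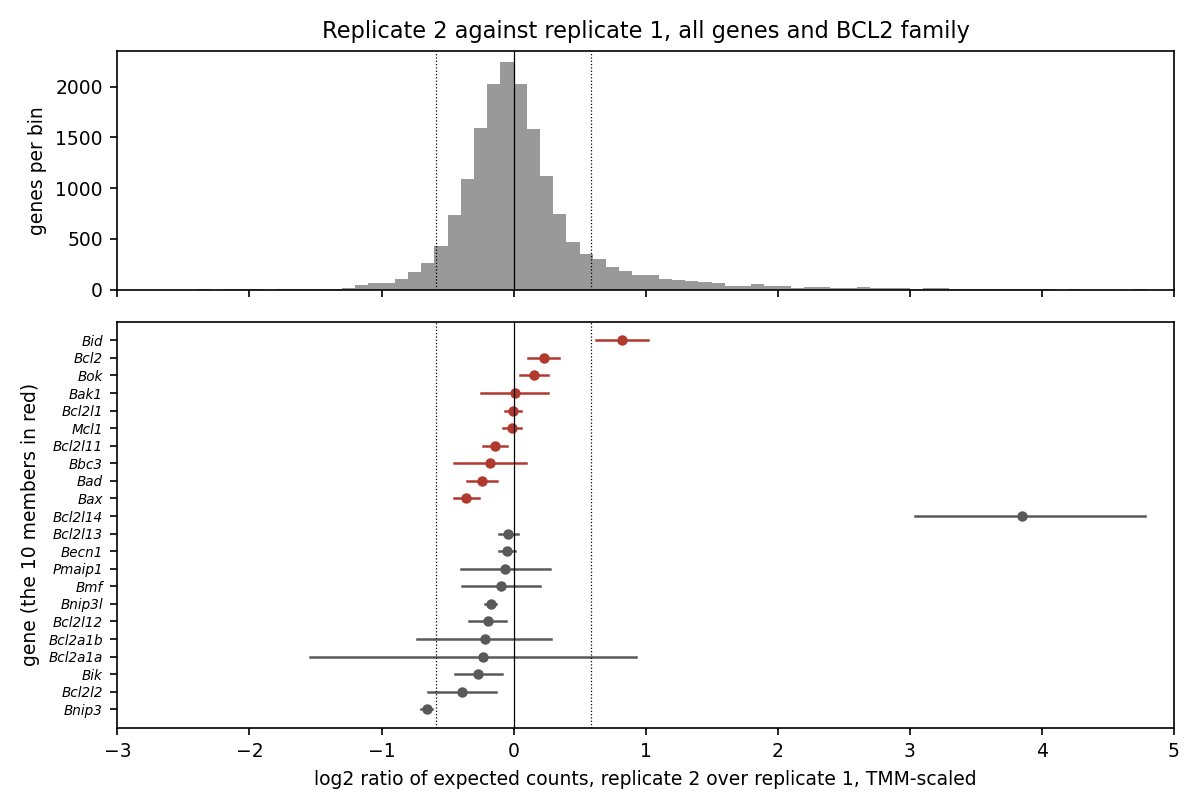
Top, number of genes per bin of the log2 ratio of expected counts, replicate 2 over replicate 1, for genes with 10 or more counts in each library (1 of 17029 lies outside the axis). Bottom, the same ratio for the 10 genes (red) and other family genes (grey), with exact 95% counting intervals as lines and 1.5-fold as dotted lines: Bid at 0.82 is the only red point past them.

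Both Bid transcripts were higher in replicate 2: Bid-201 had 2.60 and 5.92 TPM with deposited bounds of 1.62 to 3.80 and 4.29 to 7.47, and Bid-204 had 2.03 and 3.74 TPM with bounds that overlap. Bid shares 913 bases (chr6:120891930-120892842) with Bcl2l13 on the opposite strand. Bid-201 ends at 120892854, outside that overlap, but its level is an estimated split of reads from exons shared with Bid-204. Bcl2l13 had a log2 ratio of -0.04. The part of the overlap in the Bid ratio was not tested. Most thymocyte, liver, lung and neuron markers were more than 1.5-fold higher in replicate 2 as well, by the counts given above, as was 1 of 7 macrophage markers. Their part in the Bid ratio was not tested. With spike-in scaling, which shifts all genes by -0.83 on the log2 scale against TMM, 9 of the 10 genes were more than 1.5-fold lower in replicate 2 and Bid was at -0.01, while 76.8% of all genes were lower by that fold.

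Bax had 2129 and 1748 expected counts, a log2 ratio of -0.36 (interval -0.45 to -0.27). Bad was at -0.24, Bbc3 at -0.18 and Bcl2l11 at -0.14. Cardiomyocyte markers had a median log2 ratio of -0.44 over 10 genes, and their part in these ratios was not tested. Bcl2l1 and Mcl1 were at -0.0045 and -0.01, with intervals of -0.07 to 0.06 and -0.08 to 0.06 that include 0. On the deposited TPM, where the median of all genes was 0.21 higher in replicate 2, Bid was again the only one of the 10 past 1.5-fold.

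Other family genes of the pro-survival kind were low. Bcl2l2, the gene for BCL-W, had 2.70 and 2.55 TPM, and Bcl2l10 had 0 counts in both, which allows up to 0.0824 and 0.0923 TPM at a floor of 3 counts per library. Bcl2a1a had 0.58 and 0.58 TPM, Bcl2a1b had 3.03 and 3.06 TPM, and Bcl2a1d had 0.32 and 0.91 TPM. These copies of A1, a protein best known from blood cells, are nearly identical in sequence, so the split between them is uncertain. Taken singly, all 5 lay below the lowest of the 10 genes, Bak1, by mean TPM of the whole gene. For the A1 copies this order rests on the uncertain split, and it does not extend to their sum. By protein-coding transcripts it held only for Bcl2l10, Bcl2a1a and Bcl2a1d. There Bak1 had 1.83 and 1.31 TPM, below Bcl2l2 at 2.59 and 2.30 and Bcl2a1b at 3.03 and 3.06 TPM.

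Of the other BH3-only genes, Bik was the exception at 20.1 and 19.7 TPM, above Bcl2l11. Pmaip1, the gene for NOXA, which binds MCL1, had 1.79 and 2.02 TPM, and Bmf had 1.57 and 3.09 TPM. For Bmf the counts, 193 and 190, were nearly equal, its effective length in the files was 3796 and 2122 bases, and its coding transcripts had 1.27 and 1.22 TPM. Hrk had 0.02 and 0.10 TPM from 4 and 16 counts. With these genes and the other pro-survival genes added, the log2 ratio of BH3-only over pro-survival TPM moved from -0.44 to -0.13, mostly through Bik.

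Among the family relatives whose place in apoptosis is debated, Bnip3 was the most abundant by its coding transcripts. Bnip3l and Bnip3, known as receptors for the removal of mitochondria by autophagy, had 392 and 434 TPM and 205 and 154 TPM as genes. Protein-coding transcripts took 97.6% and 97.5% of Bnip3 but 10.1% and 9.40% of Bnip3l TPM, or 39.4 and 40.8 TPM, below Bax and Bcl2l1. By expected counts, the coding Bnip3l-201 held a larger part, 4016 of 9529 and 3716 of 8894. It is 3238 bases long, against 354 and 789 bases for the noncoding Bnip3l-204 and Bnip3l-205, which had the most TPM. Bnip3 was 1.58-fold lower in replicate 2 (log2 ratio -0.66). Becn1, the autophagy factor that BCL2 binds, had 93.8 and 119 TPM as a gene and 21.7 and 23.5 TPM in coding transcripts, with 48.0% and 43.1% in Becn1-201 of the nonsense-mediated decay class. Bcl2l12 had 28.5 and 29.1 TPM, and Bcl2l13 had 14.1 and 16.2 TPM. Bcl2l15 was near the floor, at 0.18 and 0.28 TPM. Bcl2l14 had 13 counts in replicate 1 and 197 in replicate 2, or 0.20 and 3.95 TPM, a log2 ratio of 3.85 (interval 3.04 to 4.78). That was the largest ratio among the family genes with enough counts, and it stood beside the thymocyte, liver, lung and neuron marker gaps, whose part in it was not tested.

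Each of the 52 genes in the pathway lists outside the family reached 1 TPM in both libraries, where 58.2% of protein-coding genes did. Past 1.5-fold between the libraries was 1 of 52, against 15.9% of all genes with enough counts. That share includes genes with as few as 10 counts, and the 52, at a median of 41.6 TPM, were not matched to it by level. The lists were described by level. The outer membrane partners had a median of 373 TPM over 4 genes, from Mtch2, which helps recruit BID, at 192 and 189 TPM, to the channel gene Vdac1 at 399 and 378 TPM. The 6 genes of released factors and the apoptosome had a median of 69.5 TPM, from Apaf1, the apoptosome scaffold, at 10.6 and 10.5 TPM, to Cycs, the gene for cytochrome c, at 180 and 119 TPM. Cycs was the 1 gene past 1.5-fold, at a log2 ratio of -0.84, while 3 of 10 cardiomyocyte markers were lower by that fold and their median log2 ratio was -0.44. Whether the difference followed them was not tested.

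**Figure D5:**
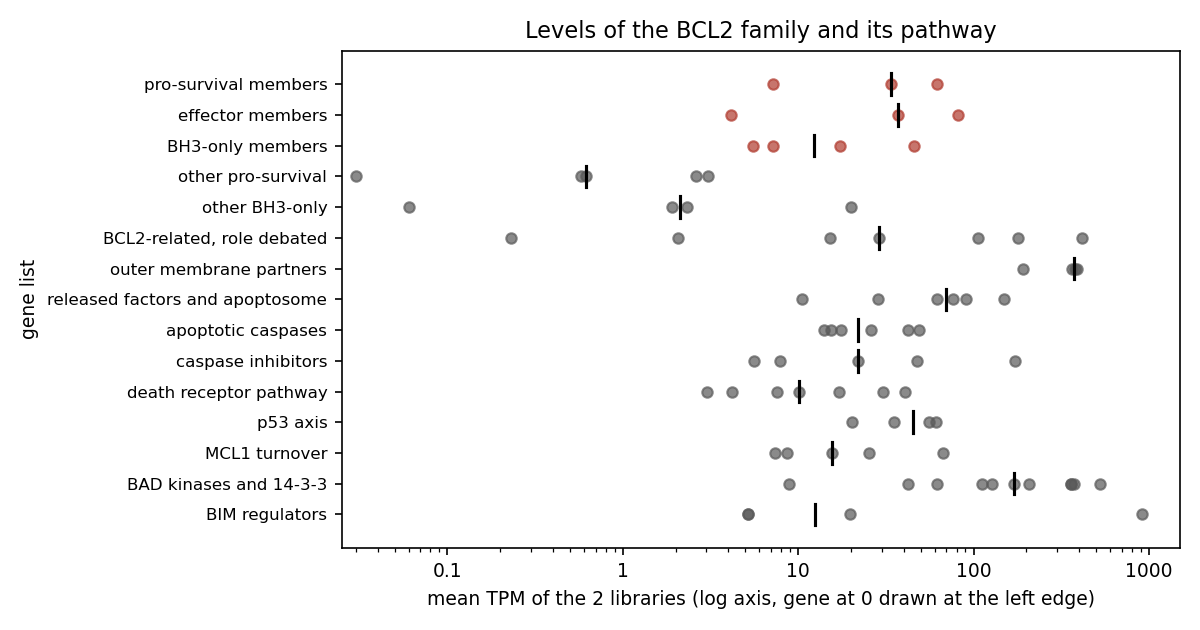
Mean TPM of the 2 libraries (log axis) for each gene of the family and pathway lists, 1 point per gene, with a black bar at each list's median; the 10 genes are in red. Other pro-survival genes sit lowest, with a median of 0.615 TPM, and outer membrane partners highest, with a median of 373 TPM.

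The 6 apoptotic caspases had a median of 21.8 TPM, between Casp9, the initiator that APAF1 activates, at 11.8 and 16.2 TPM, and Casp6, an executioner, at 47.8 and 49.6 TPM. The 5 caspase inhibitor genes had a median of 22.0 TPM, from Birc3 at 4.44 and 6.76 TPM to Birc5, which also acts in cell division, at 178 and 166 TPM. Proliferation genes were well expressed in both libraries, at a summed 680 and 781 TPM over 6 genes. The 7 genes of the death receptor pathway, upstream of Bid, had a median of 10.1 TPM. They ran from Tnfrsf10b at 2.87 and 3.14 TPM to Tnfrsf1a at 35.4 and 46.4 TPM. None of these caspase, inhibitor and death receptor pathway genes was past 1.5-fold.

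The remaining lists centre on single members or on p53. For Bad, the 11 genes of kinases and 14-3-3 proteins had a median of 171 TPM, from Pim1 at 8.76 and 8.86 TPM to Ywhae, a 14-3-3 gene, at 552 and 503 TPM. For Mcl1, the 5 genes of protein turnover had a median of 15.6 TPM, from Fbxw7 at 6.70 and 8.05 TPM to March5, a ubiquitin ligase of mitochondria, at 65.7 and 67.6 TPM. For Bcl2l11, Foxo3, a transcription factor that activates it, had 4.69 and 5.61 TPM, while Dynll1, the dynein light chain that binds the longer BIM forms, had 949 and 887 TPM. The 4 genes of the p53 axis had a median of 45.4 TPM, from Mdm4 at 18.4 and 22.4 TPM to Trp53 at 49.2 and 72.5 TPM.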

How the data were processed

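Reads were assigned to genes and transcripts of GENCODE M4 on mm10, per the file headers. The sources used here do not name the aligner, the quantifier or the use of strand. Expected counts, as deposited, are estimated reads per gene or transcript without normalization. The deposited TPM correct them for effective length. The deposited percent values give each transcript's share of its gene's TPM. The deposited posterior values and TPM bounds have no stated confidence level.

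Symbols, biotypes and coordinates came from GENCODE M21 on the same build, by stable identifier (42462 of 43346 genes matched). The 97 spike-in sequences, 1.58% and 3.12% of all counts, and 26248 features with numeric identifiers stayed out of gene scaling. Ratios between the libraries used expected counts, rounded to whole numbers for edgeR 4.0.16 TMM factors (R 4.3.3), with DESeq2 1.42.0 size factors, total counts, spike-in counts and deposited TPM as alternatives. A gene needed 10 counts in both libraries, and called means past 1.5-fold. The scaling was tested on simulated data with counting error only and equal numbers of genes raised and lowered. In the real libraries 11.2% of genes were higher and 4.74% lower, which that simulation did not cover. Count intervals are exact 95% intervals for counting error only, since reads are not independent molecules. Sums, ratios and SD are over 2 libraries of pooled embryos. Text names all 10 genes, every listed family gene, and in each pathway list the highest and lowest gene and any past 1.5-fold with 100 counts. Marker and proliferation lists are given mainly by sums, medians and counts of genes, with few genes named. The members and lists were chosen with earlier results of these data known.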

Additional observations from a re-analysis of the deposited data

How the results depend on the processing

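The pro-survival over effector log2 ratio was -0.26, and it reversed to 1.29 from expected counts without length normalization and to 0.26 with Bax and Bak1 as the only effectors. Leaving out 1 library each gave -0.35 to -0.17. The BH3-only over pro-survival log2 ratio was -0.44 (-0.51 to -0.36 leaving out 1 library each) and moved to -1.16 from expected counts, -0.60 on protein-coding transcripts only, -0.13 with all family genes of both roles and -0.58 without Bid. The Bcl2l1-201 share ranged from 56.6% to 68.7% when 1 library was left out. Of the members, 10 were detected at 1 TPM leaving out either library, and 8 at 5 TPM. The count past 1.5-fold was 1 and moved to 9 with spike-in scaling, where Bid reversed to -0.013 from 0.82. In all, 28 of 36 alternatives kept their direction and stayed within the spread, or within 1.5 times for counts. Some of these could not have come out otherwise, so the tally does not measure robustness. With 2 libraries, the value of either one always lies within 1 SD of their mean. Genes at 1 TPM in both libraries are also detected at 0.5 TPM and in each library alone. The effector without Bok and the ratio without Bid were chosen after seeing the data. No paired analysis was possible because there is 1 group. The between-library comparison could not be rerun without a library. The floor of 3 counts per library was a fixed setting, not estimated from background, and a gene at or below it is not taken as distinct from 0.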
